A study of Mus musculus with 12 samples.

Results

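The 10 genes described here are nuclear genes for mitochondrial DNA replication and transcription and for factors related to these, and they were chosen by name. They are the nuclear transcription factors Nrf1 and Gabpa, the mitochondrial transcription factors Tfam and Tfb2m, the factors Tfb1m and Mterf4, which act on mitochondrial ribosomal RNA and ribosome assembly, the mitochondrial RNA polymerase Polrmt, the subunits Polg and Polg2 of the mitochondrial DNA polymerase, and the single-stranded DNA binding protein Ssbp1. All 10 of 10 were present among the 23420 genes of the count table, Mterf4 under its older symbol Mterfd2. All 10 also passed the filter on low counts, which kept 15306 genes.

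Mitochondria carry a small circular genome for some subunits of the oxidative phosphorylation complexes, while every protein that copies or transcribes it is made from nuclear genes. POLRMT starts transcription together with TFAM, which bends and also packages mitochondrial DNA, and TFB2M, which opens the promoter. POLG with its accessory subunit POLG2 copies the DNA behind a helicase, and SSBP1 coats the displaced strand. NRF1 and GABP, whose DNA-binding subunit is GABPα, are nuclear factors known for binding promoters of mitochondrial genes, and in brown and beige adipocytes mitochondrial content accompanies heat production through UCP1.

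Bulk RNA sequencing of inguinal white adipose tissue (iWAT) was available for 12 libraries from male C57BL/6 mice, 10 weeks of age. The genotypes were HIF2a loxP/loxP (WT) and Adipoq-Cre HIF2a loxP/loxP (HIF2α AKO), so both carried the floxed alleles of Epas1, which encodes HIF2α. Mice were kept at thermoneutrality (TN, 30 °C) for 1 week or in the cold (4 to 6 °C) for 3 days, with 3 libraries in each of the 4 groups. Cre was present in the HIF2α AKO groups alone, so an effect of Cre itself and of the deletion cannot be told apart. Adiponectin-driven Cre acts in adipocytes, whereas the tissue also holds vascular, immune and stromal cells, and in bulk tissue fewer cells of a type and less RNA per cell cannot be told apart. Nothing in the labels states that the libraries of a group came from separate animals, and the p-values measure only the spread between these libraries.

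Each library held 22368316 to 35204631 reads assigned to genes. Levels are given as TMM-scaled CPM (read counts relative to the scaled library size), a scaling that sets libraries to a common composition. The summed CPM of markers is instead relative to all reads assigned to genes, without TMM scaling. Adipocyte markers (Adipoq, Plin1, Fabp4, Pparg, Lipe) were abundant in all 12 libraries, with a summed 4600 to 10200 CPM at TN and 12200 to 18700 CPM upon cold. The summed CPM of 5 macrophage markers (Adgre1, Cd68, Csf1r, Mrc1, Lyz2) was 1330 to 2760 at TN and 814 to 1850 upon cold. Over both genotypes 2 of these 5 (Mrc1, Lyz2) fell, with a median log2 fold change of -0.45 for the 5, and the part of macrophage content in the cold response of the 10 genes was not tested. The summed CPM of 12 skeletal muscle markers stood apart in TN HIF2α AKO replicate 2 (1740) and cold HIF2α AKO replicate 1 (1190), against 14.4 to 139 in the other 10 libraries. The summed CPM of 5 epithelial markers was 255 in TN WT replicate 3 and 3.04 to 13.1 elsewhere. The level of Epas1 did not fall with the HIF2α AKO label, its log2 fold change against WT being 0.40 upon cold (95% interval -0.04 to 0.83) and -0.05 at TN (-0.49 to 0.38). A read outside the deleted part of the gene cannot check the deletion, and the reads were not resolved by exon. Of 13 protein genes of the mitochondrial genome, 0 were rows of the count table, so transcripts made by these factors were not analysed here.

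To ask how the factors responded to cold, all 12 libraries were fitted in 1 edgeR quasi-likelihood model, and p-values were adjusted by Benjamini-Hochberg over the 15306 genes. Averaged over both genotypes, 6 of 10 genes were higher upon cold and 0 were lower at an adjusted p under 0.05. Of all genes tested, 24.8% were called higher and 24.0% lower. The 6 genes were Tfb2m, Polrmt, Gabpa, Tfam, Tfb1m and Ssbp1. At an unadjusted p under 0.05, 1 gene (Nrf1) was lower, and DESeq2 also called 0 lower, whereas limma-voom with quality weights called 1 lower. In either direction, 7 of the 10 genes and 8598 of the 15306 had an unadjusted edgeR p under 0.05. The median log2 fold change of the 10 genes was 0.31, against -0.05 over all genes tested. In all 6 cold libraries, 4 of the 10 genes (Gabpa, Tfam, Tfb2m, Polrmt) were above every TN library, which 16.0% of all genes tested also were.

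**Figure D1:**
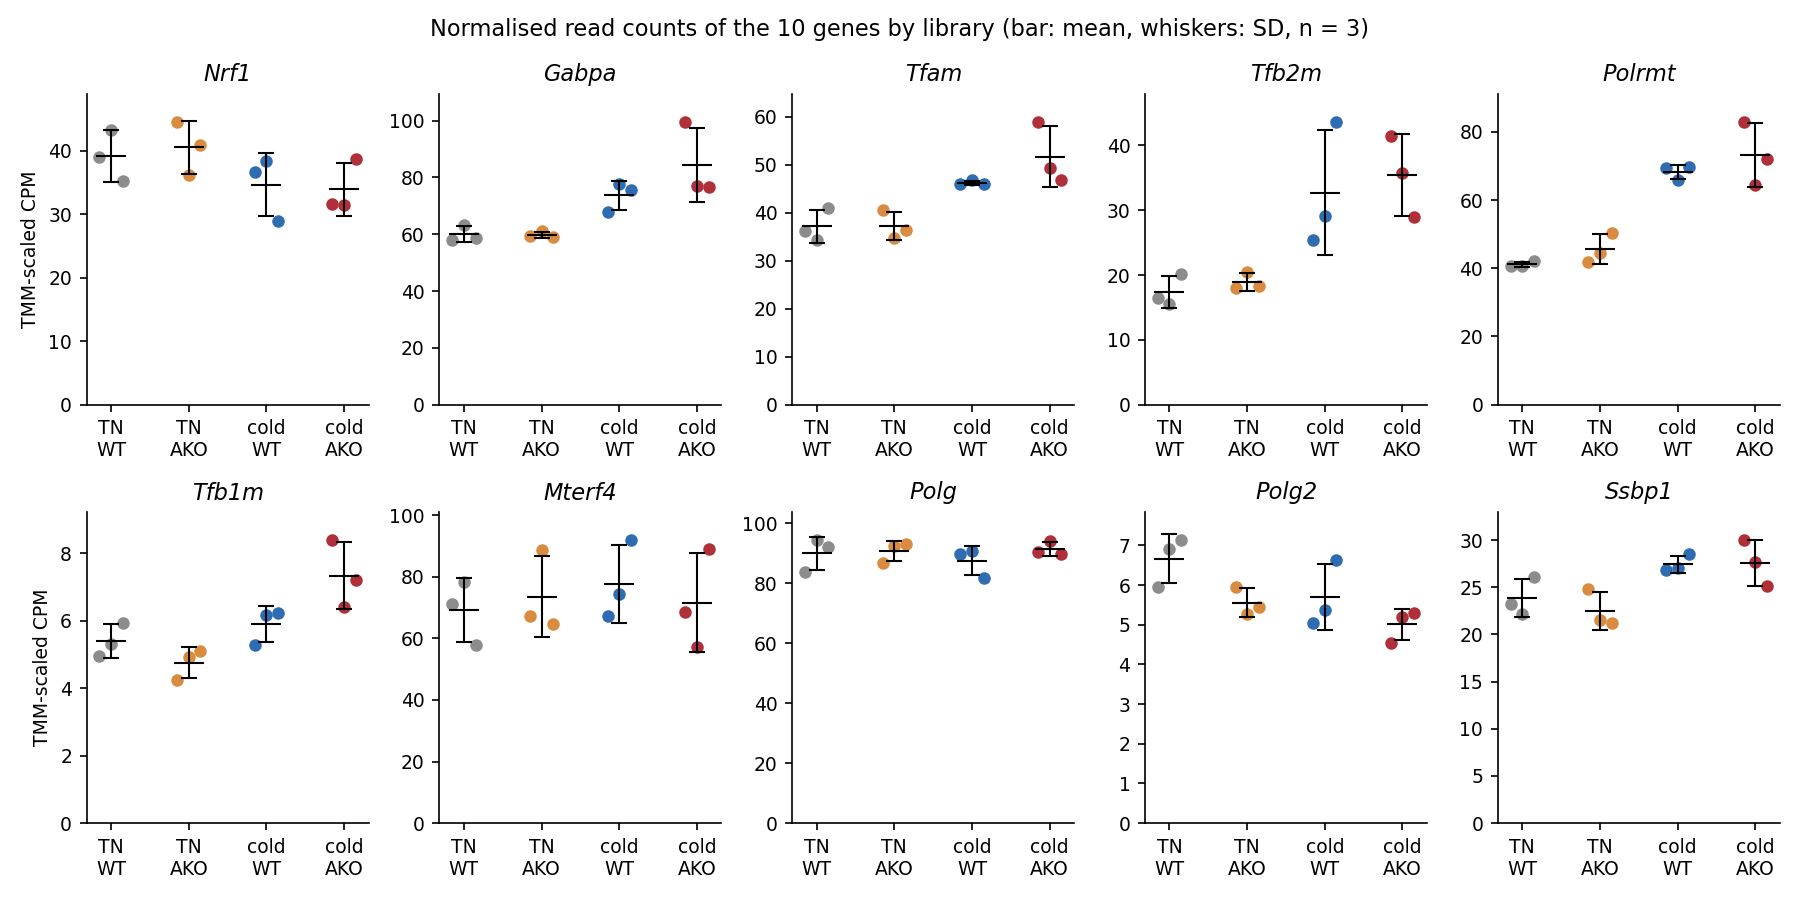
Normalised read counts (TMM-scaled CPM, linear axes from 0) of the 10 genes in every library, by group; points are libraries, bars the mean and whiskers the SD of 3 libraries. Polrmt separated the temperatures most clearly, from 40.7 to 50.4 CPM at TN and from 64.4 to 83.0 CPM upon cold, while Polg stayed between 81.9 and 94.4 CPM throughout.

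The mitochondrial RNA polymerase and its promoter-opening partner rose most. Polrmt (chr10:79736125-79746604, GRCm38, minus strand) was at 40.8, 40.7 and 42.1 CPM in TN WT and 42.0, 44.4 and 50.4 CPM in TN HIF2α AKO. Upon cold it was at 69.5, 65.9 and 69.6 CPM in WT and at 83.0, 64.4 and 72.2 CPM in HIF2α AKO. All cold libraries lay above all TN libraries, with no overlap in either genotype. The log2 fold change of Polrmt was 0.73 (SE 0.10, edgeR adjusted p = 0.00118) in WT and 0.68 (SE 0.10, edgeR adjusted p = 0.00113) in HIF2α AKO.

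Tfb2m (chr1:179528052-179546305, minus strand) had the highest fold change of the 10 genes and a wider spread upon cold. Its levels were 16.5, 15.5 and 20.2 CPM in TN WT and 18.0, 20.5 and 18.4 CPM in TN HIF2α AKO. They were 25.4, 29.1 and 43.7 CPM in cold WT and 41.5, 35.8 and 29.0 CPM in cold HIF2α AKO. Every cold library was above every TN library, although the cold WT libraries ranged widely around their mean of 32.7 ± 9.67 CPM (SD, n = 3). The log2 fold change was 0.91 (SE 0.20, edgeR adjusted p = 0.0103) in WT and 0.90 (SE 0.20, edgeR adjusted p = 0.0093) in HIF2α AKO. In WT the call was lost without TN WT replicate 2, at 0.82 (edgeR adjusted p = 0.0522), and in HIF2α AKO without the 2 libraries holding muscle transcripts, at 0.83 (edgeR adjusted p = 0.0628).

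Tfam (chr10:71225468-71238328, minus strand), the activator and packaging protein, rose by less. It was at 36.1, 34.3 and 41.1 CPM in TN WT, at 40.6, 34.9 and 36.3 CPM in TN HIF2α AKO, and at 46.0, 46.8 and 45.9 CPM in cold WT. Cold HIF2α AKO libraries held 59.0, 49.3 and 46.9 CPM, so cold and TN libraries did not overlap. Over both genotypes the log2 fold change of Tfam was 0.39 (SE 0.07, edgeR adjusted p = 0.00181). Within WT it was 0.31 (95% interval 0.09 to 0.54, edgeR adjusted p = 0.052), just short of the limit, and within HIF2α AKO it was 0.47 (edgeR adjusted p = 0.0091).

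Gabpa (chr16:84834891-84863783, plus strand), encoding the DNA-binding subunit of GABP, rose and Nrf1 did not. Gabpa was at 58.0, 63.4 and 58.7 CPM in TN WT and 59.3, 61.0 and 58.8 CPM in TN HIF2α AKO. Upon cold it reached 67.8, 77.6 and 75.4 CPM in WT and 99.6, 77.0 and 76.6 CPM in HIF2α AKO, above every TN library. The log2 fold change was 0.40 over both genotypes (SE 0.08, edgeR adjusted p = 0.0020), 0.50 in HIF2α AKO (edgeR adjusted p = 0.0081) and 0.29 in WT (edgeR adjusted p = 0.0692, not called). The span of Gabpa overlaps that of Atp5j by 967 bases. Atp5j, an ATP synthase subunit gene, itself had a log2 fold change of 0.59 upon cold, and the strand setting of the counting is not given in the sources used here. Nrf1 (chr6:30047985-30153458, plus strand) was at 35.1 to 44.5 CPM at TN and at 29.0 to 38.7 CPM upon cold, ranges that overlap. Its log2 fold change was -0.22 (95% interval -0.43 to -0.01, edgeR adjusted p = 0.0768) over both genotypes. It passed the limit with upper quartile scaling, at -0.33 (edgeR adjusted p = 0.0204), a scaling under which the median of all genes moved to -0.17. It also passed in limma-voom, at -0.19 (limma adjusted p = 0.0364), and without cold HIF2α AKO replicate 3, at -0.27 (edgeR adjusted p = 0.0395).

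Tfb1m and Ssbp1 rose modestly. Tfb1m (chr17:3519250-3557796, minus strand), the ribosomal RNA methyltransferase paralogous to Tfb2m, was at 4.94, 5.31 and 5.94 CPM in TN WT and 4.25, 4.93 and 5.09 CPM in TN HIF2α AKO. It was at 5.28, 6.15 and 6.24 CPM in cold WT, which overlap TN WT, and at 8.38, 6.39 and 7.21 CPM in cold HIF2α AKO, above all other libraries. The log2 fold change was 0.37 over both genotypes (SE 0.11, edgeR adjusted p = 0.0151), 0.13 in WT (edgeR adjusted p = 0.545) and 0.62 in HIF2α AKO (edgeR adjusted p = 0.0146). The gene overlaps Tiam2 by 148 bases and Cldn20 by 660 bases. Tiam2 had a log2 fold change of 0.65 upon cold over both genotypes (edgeR adjusted p = 0.00642), and Cldn20 was not among the genes tested. Whether reads were shared was not tested. Ssbp1 (chr6:40471414-40481823, plus strand) ranged from 21.2 to 26.1 CPM at TN and from 25.1 to 30.0 CPM upon cold, with 1 cold HIF2α AKO library below the highest TN library. Its log2 fold change was 0.25 (SE 0.07, edgeR adjusted p = 0.0143) over both genotypes and 0.29 (edgeR adjusted p = 0.0484) in HIF2α AKO. The latter call was at the limit and was made under 6 of 22 alternatives, whose adjusted p ranged from 0.00813 to 0.280. In HIF2α AKO the call of Tfb1m was lost without TN replicate 1 (0.55) or cold replicate 1 (0.52) of that genotype. Both calls over both genotypes depended on scaling, with edgeR adjusted p = 0.0518 for Tfb1m and 0.119 for Ssbp1 under upper quartile scaling.

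The DNA polymerase subunits and Mterf4 did not pass the test in either genotype or over both. Polg (chr7:79446231-79467911, minus strand), the catalytic subunit, was at 83.8, 94.4 and 92.0 CPM in TN WT and 86.8, 92.5 and 93.0 CPM in TN HIF2α AKO. It was at 89.7, 90.9 and 81.9 CPM in cold WT and 90.5, 94.1 and 89.8 CPM in cold HIF2α AKO, so the 4 groups overlapped. The 95% interval of its log2 fold change over both genotypes was -0.14 to 0.11. Polg overlaps Fanci by 4036 bases, and Fanci had a log2 fold change of -0.67 upon cold. Polg2 (chr11:106768204-106779537, minus strand), the accessory subunit, was at 5.28 to 7.13 CPM at TN and 4.55 to 6.64 CPM upon cold, with a log2 fold change of -0.19 (95% interval -0.42 to 0.04). Under upper quartile scaling it was -0.30 (edgeR adjusted p = 0.0319). Polg2 overlaps Milr1 by 591 bases, and Milr1, a mast cell receptor gene, had a log2 fold change of -0.57. Mterf4 (chr1:93301205-93305879, minus strand), which partners an RNA methyltransferase in the mitochondrial ribosome, had a wide spread, from 58.0 to 88.6 CPM at TN and from 57.3 to 91.8 CPM upon cold. Its log2 fold change was 0.07 (95% interval -0.23 to 0.36).

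Within WT alone, 2 of 10 genes (Polrmt, Tfb2m) were called higher and 0 lower, against 15.6% of all genes higher and 5.68% lower. The median log2 fold change of the 10 genes was 0.19. Within HIF2α AKO, 6 of 10 were called higher and 0 lower, against 15.6% and 11.5% of all genes, with a median of 0.38. All genes had a median of -0.03 in WT and of -0.05 in HIF2α AKO. In WT, 4 of the 10 genes had an unadjusted edgeR p under 0.05, as did 5960 of all 15306 genes tested. The unequal counts do not by themselves show a difference between genotypes, which was tested as an interaction. With the 2 libraries holding muscle transcripts left out, 4 genes (Gabpa, Tfam, Tfb2m, Polrmt) were called in WT, 2 (Gabpa, Polrmt) in HIF2α AKO and 4 over both genotypes. Of all genes, 19.5%, 9.8% and 38.5% were then called in either direction, against 21.3%, 27.0% and 48.8% with every library, so calls in HIF2α AKO were fewer over all genes too. With TN WT replicate 3 left out as well, the counts were 3, 1 and 6 (23.8%, 11.9% and 43.6% of all genes). Muscle transcripts were high in cold HIF2α AKO replicate 1, which held the highest level of Gabpa, Tfam, Tfb1m, Polrmt and Ssbp1 among all libraries. That library also held the highest level of Ucp1 (5897 CPM) and of the citrate synthase gene Cs (2844 CPM). The part of muscle transcripts or of thermogenic state in these levels was not tested.

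**Figure D2:**
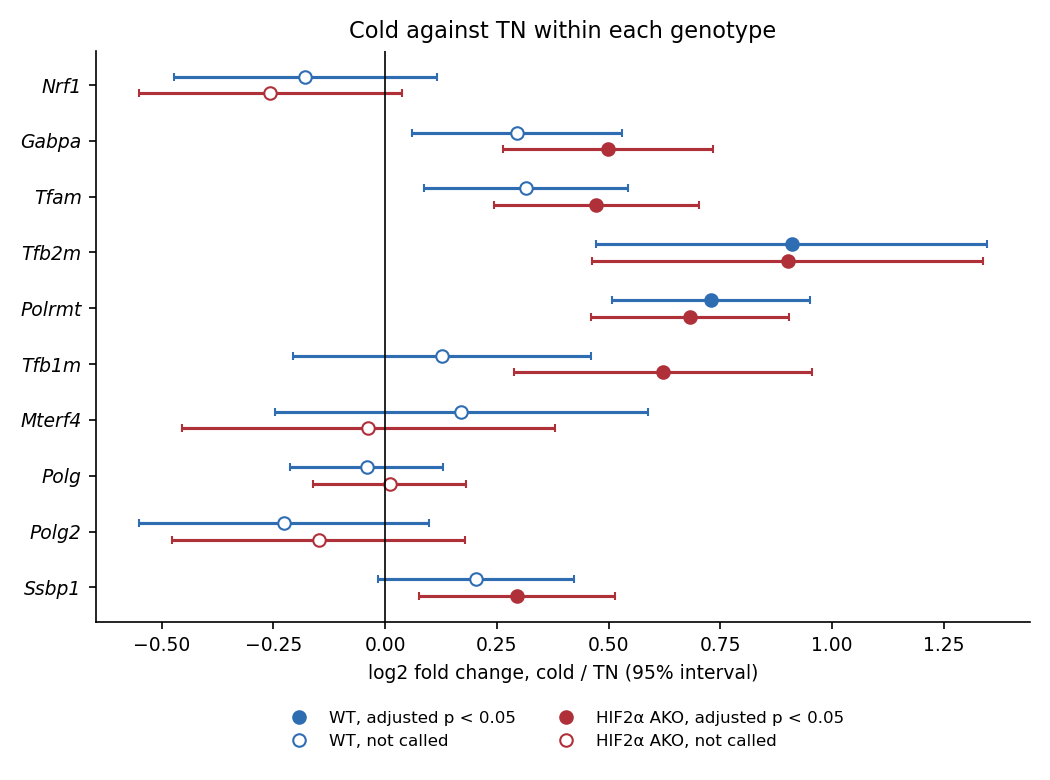
Log2 fold change of cold over TN for each gene within WT (blue) and within HIF2α AKO (red), with 95% intervals from the edgeR fit; filled points had an adjusted p under 0.05. Polrmt and Tfb2m lay near the same value in both genotypes, whereas Tfb1m was at 0.13 in WT and 0.62 in HIF2α AKO with overlapping intervals.

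Promoter sequences are shown for the 2 genes that rose most, Polrmt and Tfb2m, and for Tfam and Polg, which share a full GABP motif although only the first of them passed the test. The windows run from 250 bases before to 50 bases after the RefSeq start (GRCm38.p6) and lie at chr10:79746532-79746831, chr1:179546227-179546526, chr10:71237995-71238294 and chr7:79466224-79466523, all on the minus strand. Capitals mark matches on either strand to GCANGCGC (NRF1 core), CCGGAAGT (GABP) or the shorter CGGAAG (ETS core) contained in it.
Polrmt: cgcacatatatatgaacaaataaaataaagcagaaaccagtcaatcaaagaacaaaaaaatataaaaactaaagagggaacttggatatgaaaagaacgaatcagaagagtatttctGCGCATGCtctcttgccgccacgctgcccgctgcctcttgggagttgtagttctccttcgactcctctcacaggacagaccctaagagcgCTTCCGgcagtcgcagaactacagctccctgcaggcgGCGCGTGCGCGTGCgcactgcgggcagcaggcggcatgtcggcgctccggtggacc
Tfb2m: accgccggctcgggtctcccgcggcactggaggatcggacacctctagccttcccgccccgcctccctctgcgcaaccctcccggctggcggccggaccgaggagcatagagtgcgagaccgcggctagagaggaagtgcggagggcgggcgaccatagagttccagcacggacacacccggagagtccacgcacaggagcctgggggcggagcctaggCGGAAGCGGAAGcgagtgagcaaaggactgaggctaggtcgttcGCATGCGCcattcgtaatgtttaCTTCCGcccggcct
Tfam: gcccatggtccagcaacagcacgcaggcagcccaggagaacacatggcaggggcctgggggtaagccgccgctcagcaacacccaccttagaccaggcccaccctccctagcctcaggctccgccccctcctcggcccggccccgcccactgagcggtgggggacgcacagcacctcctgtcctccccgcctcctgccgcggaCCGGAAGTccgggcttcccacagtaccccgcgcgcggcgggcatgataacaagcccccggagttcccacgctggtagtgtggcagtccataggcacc
Polg: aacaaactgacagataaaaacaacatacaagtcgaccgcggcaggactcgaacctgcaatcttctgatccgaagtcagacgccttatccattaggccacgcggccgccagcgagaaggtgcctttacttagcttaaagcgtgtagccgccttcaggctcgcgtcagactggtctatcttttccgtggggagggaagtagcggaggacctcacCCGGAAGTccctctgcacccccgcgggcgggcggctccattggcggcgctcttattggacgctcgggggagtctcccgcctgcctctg

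Polrmt held 3 NRF1 core matches, beginning at positions -133, -6 and 0 from the start base, the last 2 of them overlapping. Tfb2m held 1, beginning at 13, and Ssbp1 held 1. Across the 11 promoters of the 10 genes (Nrf1 has 2), 3 promoters held the NRF1 core, as did 9.61% of 32851 mouse promoters of the same length and 16.4% of the 14276 promoters of genes tested here. The GABP motif occurred in 2 of 11 (Tfam at -47, Polg at -38), against 3.89% of all promoters and 6.82% of those of genes tested. The ETS core occurred in 8 of 11, against 16.9% of all promoters and 27.1% of those of genes tested. Of the hypoxia response element cores bound by HIF proteins, ACGTG occurred in 1 of 11 (Polg2), against 19.6% of all promoters and 24.1% of those of genes tested, and GCGTG in 9 of 11, against 32.4% of all and 47.5% of tested. The GCGTG matches beginning at -4 and 2 in Polrmt and at 44 in Ssbp1 share bases with NRF1 cores. Those beginning at -114 in Polrmt and at -17 in Ssbp1 do not. AAGGTCA, the site of estrogen-related receptors, was in 0 of 11 windows and in 4.72% of all and 3.45% of tested. These matches are letters in a window, and binding was not measured.

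Ratios of counts within a library need no scaling, and 4 pairs of the genes were compared by an exact permutation test, two-sided, that permuted temperature within genotype and could reach p = 0.005 at the lowest. The log2 ratio of Gabpa to Nrf1 was 0.41 to 0.76 in the 6 TN libraries and 0.89 to 1.66 in the 6 cold libraries, without overlap. It rose by 0.61 (exact permutation p = 0.005, adjusted over 4 ratios 0.02). The log2 ratio of Tfb2m to Tfb1m was 1.54 to 2.08 at TN and 2.00 to 2.80 upon cold, and rose by 0.51 (exact permutation p = 0.015, adjusted 0.02). The rise was 0.75 in WT and 0.27 in HIF2α AKO. The log2 ratio of Tfam to Polrmt fell by 0.31 (exact permutation p = 0.01, adjusted 0.02), from -0.47 to -0.04 at TN to -0.62 to -0.38 upon cold, the ranges overlapping. The log2 ratio of Polg2 to Polg differed by -0.18 (exact permutation p = 0.11), with overlapping ranges, and by -0.26 (exact permutation p = 0.015) without cold WT replicate 3.

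**Figure D3:**
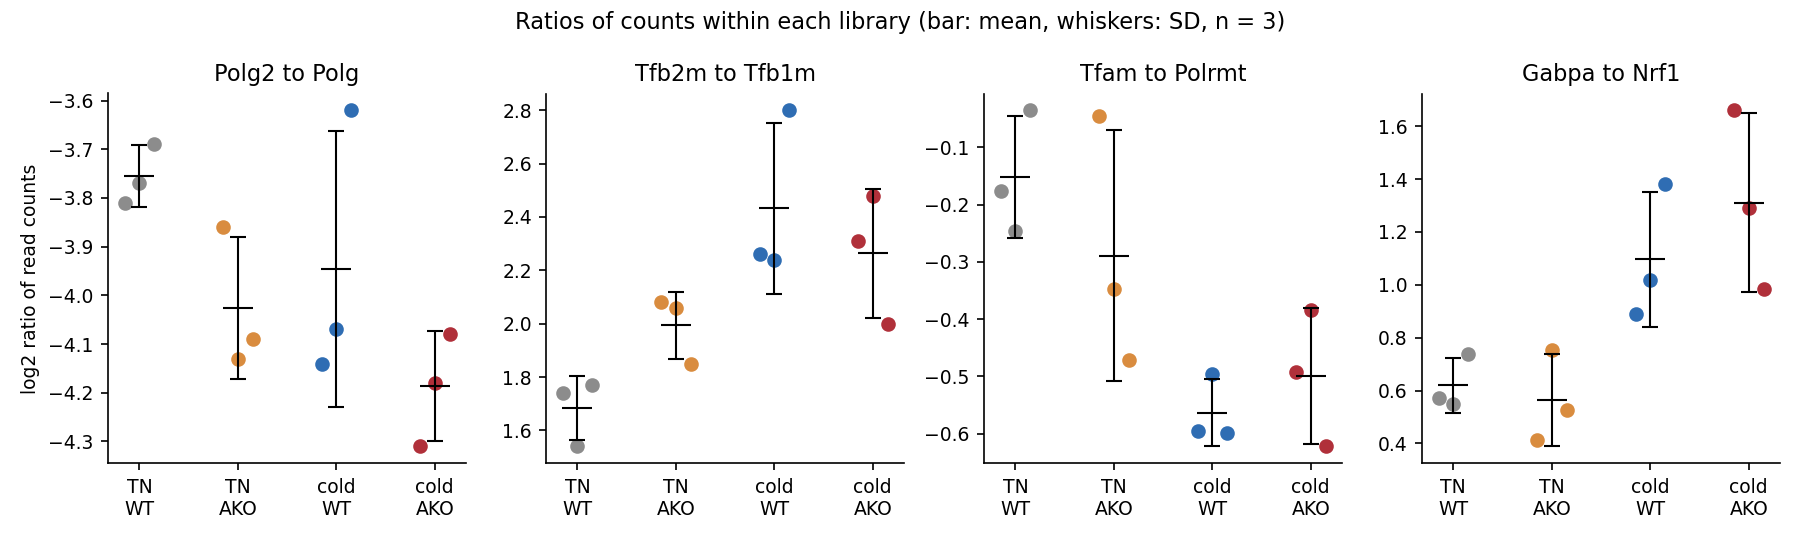
Log2 ratio of read counts for 4 gene pairs within each library, by group; points are libraries, bars the mean and whiskers the SD of 3 libraries, and the vertical axes do not start at 0. The Gabpa to Nrf1 ratio was 0.89 or higher in every cold library and 0.76 or lower in every TN library.

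Levels can be compared between genes only per length, as CPM per kilobase of transcript, and for Tfb1m, Tfb2m, Polg and Polg2 the annotation lists 1 transcript. In TN WT, Polg was at 11.5 ± 0.71 CPM per kb and Polg2 at 4.43 ± 0.42 (SD, n = 3), so the catalytic subunit lay above its accessory subunit. Tfb2m was at 7.11 ± 1.01 CPM per kb in TN WT and 13.3 ± 3.95 in cold WT. Tfb1m was at 3.85 ± 0.36 and 4.20 ± 0.38 CPM per kb in the same groups, below Tfb2m in both. In cold WT the order of the 4 was Tfb2m, Polg (11.2 ± 0.62), Tfb1m and Polg2 (3.78 ± 0.55), in which Tfb2m and Polg, and Tfb1m and Polg2, did not differ beyond their SDs. The place of the other 6 genes depended on the transcript length taken: Tfam in TN WT was at 41.4 CPM per kb of its median transcript and 8.47 CPM per kb of all its exons.

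Other genes that act with these factors moved unequally upon cold, over both genotypes. Of all genes tested, 24.8% were called higher and 24.0% lower in this contrast. Among 10 further replication and nuclease genes, 3 rose, 2 fell and 5 did not pass (median log2 fold change -0.14), near the shares of all genes. Endog, a mitochondrial nuclease, rose by 1.75 and Twnk, the helicase in front of the polymerase, by 0.50, while Primpol, a primase-polymerase, fell by 0.42 and Exog, an exonuclease, fell by 0.35 on the log2 scale. Of 10 genes of nucleotide supply, 5 rose and 2 fell (median 0.24). The pyrimidine carrier Slc25a33 rose by 2.38, the succinyl-CoA ligase subunits Suclg1 by 2.06 and Sucla2 by 2.58, and the thymidine phosphorylase Tymp by 1.05. Tymp held only 23 to 70 counts per library. The 2 that fell, named after their values were seen, were the ribonucleotide reductase subunit gene Rrm2b (-0.29) and Samhd1 (-0.62). Those ligase subunits also act in the citric acid cycle.

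Of 6 further transcription genes, 3 rose, 1 fell and 2 did not pass (median 0.27), beside 24.8% of all genes higher and 24.0% lower. Tefm, the elongation factor of POLRMT, rose by 1.16, Mrpl12, a ribosomal protein that also binds POLRMT, by 1.46 and Mterf2 by 0.61, while Mterf1b fell by 0.52 on the log2 scale. Mterf1b has the near-identical copy Mterf1a, so reads may be split between them. Processing and decay factors of mitochondrial RNA rose in 16 of 18 cases and fell in 0 (median 0.74). They included Tbrg4 (1.11), Lrpprc (1.26), an RNA stabilising protein, Grsf1 (1.27), an RNA granule protein, and Fastkd1 (1.12). Of 6 nucleoid and protein quality genes, 5 rose (median 1.09), among them Atad3a (1.33), Phb2 (1.03), Phb (1.55) and Clpx (1.16). For comparison, 2 lists were picked by symbol alone, complex I (Ndufa, Ndufb, Ndufc, Ndufs, Ndufv) and mitochondrial ribosome (Mrpl, Mrps). Of the first, 35 of 36 tested genes rose with a median of 1.48, and of the second 75 of 76 rose with a median of 0.79, each with 0 that fell. A symbol does not ensure that the protein is a subunit, and the complex I-named gene that did not pass was Ndufa4l2 (0.31). Mrpl12 is in the last of these lists as well.

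Of 9 nuclear regulators, 3 rose, 5 fell and 1 did not pass, beside 24.8% of all genes higher and 24.0% lower. The coactivators Ppargc1a and Ppargc1b rose by 2.76 and 2.13 and the estrogen-related receptor Esrra by 1.73, while the cAMP-responsive factor Creb1 fell by 0.46 on the log2 scale. Gabpb1 and Gabpb2, which encode the activating partners of GABPα and were picked after their values were seen, had log2 fold changes of -0.38 and -0.40. Gabpa and its partners thus had fold changes of opposite sign.

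**Figure D4:**
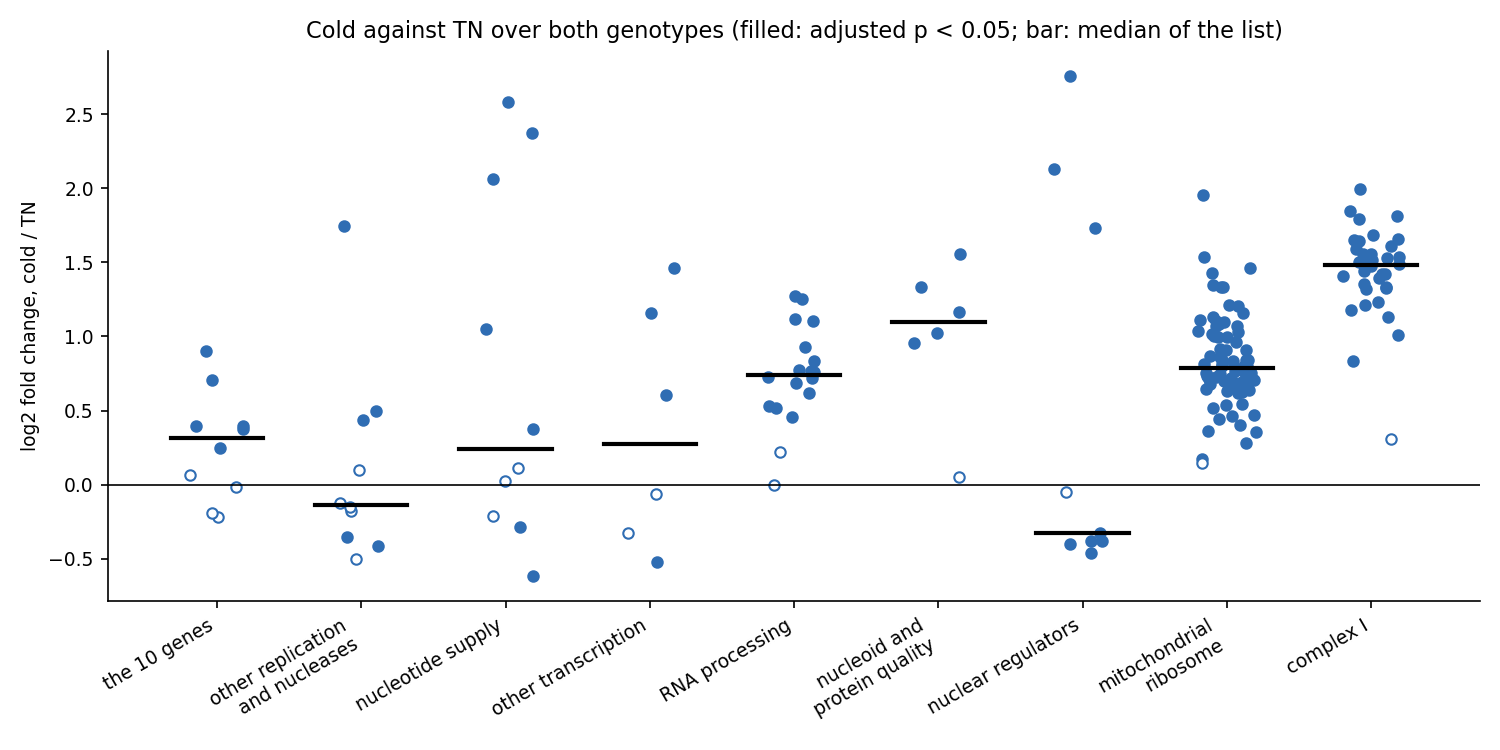
Log2 fold change of cold over TN, averaged over both genotypes, for the 10 genes and for lists of related mitochondrial genes; each point is a gene, filled where the adjusted p was under 0.05, and bars are medians. The 10 genes had a median of 0.31, below those of RNA processing (0.74), the nucleoid (1.09) and complex I (1.48) and above those of further replication genes (-0.14), nucleotide supply (0.24), further transcription genes (0.27) and nuclear regulators (-0.33).

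To ask whether the genotype changed these genes, the libraries labelled HIF2α AKO were compared with WT at each temperature. Upon cold, 0 of 10 genes passed the test in edgeR, and 0.00653% of all genes were called. At an unadjusted p under 0.05, edgeR gave 0 genes and DESeq2 gave 1 (Tfb1m), while DESeq2 and limma-voom called 0 after adjustment. Of all 15306 genes, 451 had an unadjusted edgeR p under 0.05. The largest difference was that of Tfb1m, 5.89 ± 0.53 CPM in WT and 7.33 ± 1.00 CPM in HIF2α AKO (SD, n = 3), a log2 fold change of 0.31 (95% interval -0.02 to 0.65, edgeR adjusted p = 1.00). For Gabpa it was 0.20 (95% interval -0.04 to 0.43), for Tfam 0.16 (-0.07 to 0.39) and for Polg2 -0.18 (-0.51 to 0.14). Tfam and Tfb1m were higher in every cold HIF2α AKO library than in every cold WT library, which 3.8% of all genes tested also were. The margins were narrow, the lowest cold HIF2α AKO and highest cold WT libraries being at 46.87 and 46.78 CPM for Tfam. For Tfb1m they were at 6.39 and 6.24 CPM. Without cold HIF2α AKO replicate 1, the log2 fold changes were 0.21 for Tfb1m and 0.06 for both Gabpa and Tfam. The median of the 10 was 0.08, against -0.02 over all genes. The 5 macrophage markers had a median of -0.39 in the same comparison, with 0 called, and their part was not tested.

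At TN, 0 of 10 genes passed (0.00653% of all genes), with 0 at an unadjusted p under 0.05 in edgeR and in DESeq2 and 1 (Polrmt) in limma-voom. Of all 15306 genes, 446 had an unadjusted edgeR p under 0.05 at TN. The values lay between -0.26 for Polg2 (95% interval -0.59 to 0.06) and 0.15 for Polrmt (-0.08 to 0.37). Polg2 was at 5.96, 6.92 and 7.13 CPM in TN WT and 5.96, 5.28 and 5.44 CPM in TN HIF2α AKO, groups that touch at their edge. Averaged over both temperatures, 0 of 10 passed (0.00653% of all genes), with a log2 fold change of -0.22 for Polg2 (95% interval -0.45 to 0.01). The upper bounds upon cold, 0.65 for Tfb1m, 0.55 for Tfb2m and 0.43 for Gabpa, exceeded the log2 fold change of Tfam between cold and TN (0.39).

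The difference in cold response between genotypes was tested as an interaction, which called 0 of 10 genes and 0.0% of all genes. In edgeR 1 of 10 (Tfb1m) had an unadjusted p under 0.05, as in DESeq2, and limma-voom had 0. Of all 15306 genes, 327 had an unadjusted edgeR p under 0.05 for the interaction. The interaction of Tfb1m was 0.49 on the log2 scale (95% interval 0.02 to 0.96, edgeR adjusted p = 1.00). The study's own limits were looser, an unadjusted p under 0.15 and a log2 fold change above 0.2 in either direction. The study states them for DESeq2 and for cold HIF2α AKO against cold WT, whereas here they were applied to the edgeR fit and to further contrasts. With these limits on the edgeR fit, 1 of 10 genes (Tfb1m) was called between genotypes upon cold, against 8.98% of all genes. The same limits called 1 gene at TN (8.63% of all), 1 over both temperatures (7.99%) and 1 in the interaction (8.81%), and 5 in the cold response of WT (52.5%).

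**Figure D5:**
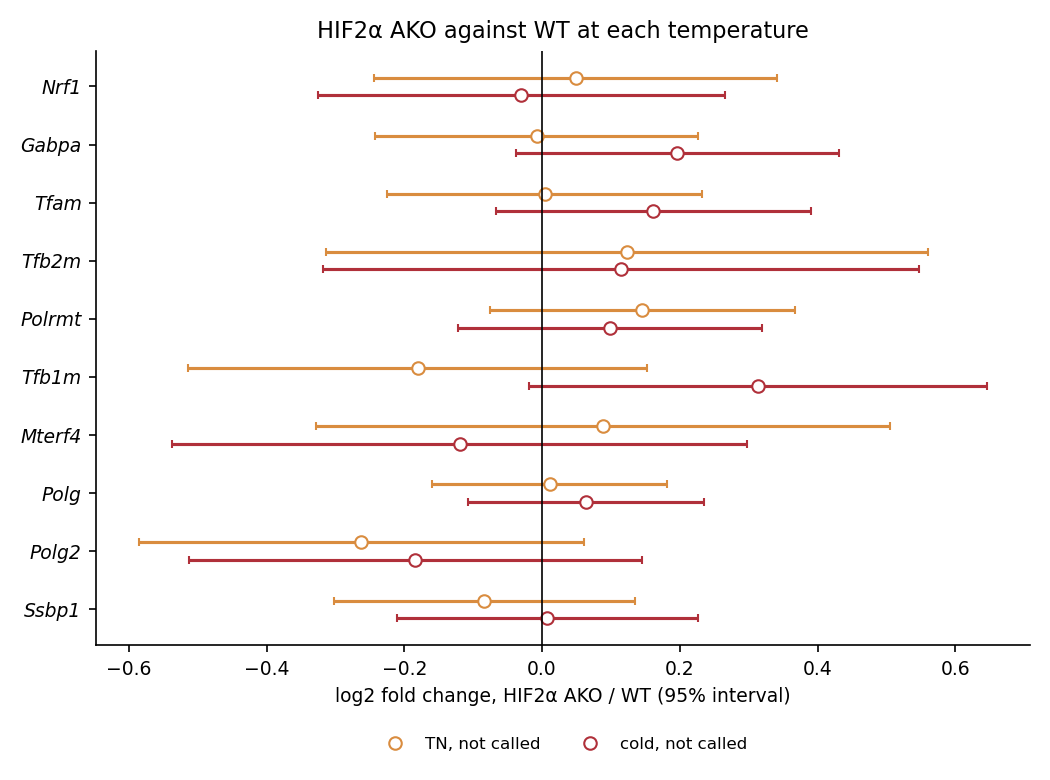
Log2 fold change of HIF2α AKO over WT for each gene at TN (orange) and upon cold (red), with 95% intervals from the edgeR fit; open points were not called. The intervals of all 10 genes at both temperatures include 0, and Tfb1m was at -0.18 at TN and 0.31 upon cold.

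The genes with the most similar pattern over the 12 libraries were ranked by the root mean square difference of log2 CPM after centring each gene, among 11661 genes. For Polrmt they were Nfyc (0.068), Eif3l and Psmc4 (both 0.08), and for Tfb2m they included Tmem69 (0.078) and Aldh9a1 (0.079). Tfam was closest to Eif1, Thoc7 and Ctdnep1 (0.05 to 0.071), and Gabpa to Zc3h14, Usp16 and Pabpc4 (0.057 to 0.066). Tfb1m was closest to Spred2, Abhd10 and Sec31a (0.078 to 0.093), and Ssbp1 to Zfand1, Otub1 and Rrs1 (0.063 to 0.067). None of the closest 3 genes of any of these 6 was another of the 10. With so few of the 11661 genes being among the 10, this cannot show whether the 10 vary together.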

How the data were processed

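Male mouse iWAT was profiled by bulk RNA-seq in 12 libraries. Per the submitters' processing notes, the authors used Trim Galore (version 0.4.4), STAR (2.6.1d) and HTSeq (0.13.5) with GRCm38, and DESeq2 (1.30.0). The deposited values are whole-number counts of reads per gene. Strand setting and annotation release are not given in the sources used here. Tallies outside genes (21.9 to 27.0% of listed reads) were left out.

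Counts were filtered with filterByExpr (minimum count 10, minimum total 15), scaled by TMM (factors 0.829 to 1.20) and fitted with edgeR 4.0.16 in R 4.3.3 as 4 groups, with 8 residual degrees of freedom. The biological coefficient of variation was 0.202. P-values were adjusted by Benjamini-Hochberg with a limit of 0.05. Alternatives used DESeq2 1.42.0, limma 3.58.1 (voom with quality weights), other scalings, no filter, the compared groups alone, a replicate block and libraries left out. The scripts were tested on simulated data. Ratios used counts plus 0.5. SDs and intervals cover the spread between libraries.

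The genes and lists were chosen with earlier results of these data known. All 10 genes are named. Of each further list, up to 4 genes with the smallest adjusted p are named. Gabpb1, Gabpb2, Rrm2b and Samhd1 were added after their values were seen. Positions, overlaps and promoters come from RefSeq, and strands and transcript lengths from GENCODE vM21.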

Additional observations from a re-analysis of the deposited data

Results flagged for a closer look

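Groups of 3 libraries are too small for a check of single outlying libraries. Of 20 checks for opposite directions, 1 was met. The share of all genes that would meet such a check was not computed, so this count cannot set a gene apart. For Tfb1m, all 3 cold HIF2α AKO libraries lay above the cold WT mean, and all 3 TN HIF2α AKO libraries lay below the TN WT mean. The interaction was 0.49 on the log2 scale with an edgeR adjusted p of 1.00, so the difference did not pass its test over all genes.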

How the results depend on the processing

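Over both genotypes, Polrmt, Tfb2m, Tfam and Gabpa were called higher upon cold under every alternative, with edgeR, DESeq2 and limma-voom. Alternatives that left out the libraries with muscle transcripts were chosen after seeing the data. In WT the count of 2 (21.3% of all genes in either direction) became 4 with limma-voom (30.6%) and 4 with DESeq2 on the compared groups (18.4%). It was 4 without the 2 muscle libraries (19.5%) and 5 with the study's thresholds applied to the edgeR fit (52.5%). Leaving out single libraries gave 1 (without TN WT replicate 2) to 4 (without cold HIF2α AKO replicate 1). In HIF2α AKO the count of 6 became 2 without the muscle libraries (median log2 fold change 0.26) and 1 without TN WT replicate 3 as well (median 0.26), while calls over all genes fell from 27.0% to 9.8% and 11.9%. Upper quartile scaling moved the medians to 0.049 in WT, 0.29 in HIF2α AKO and 0.20 over both, and those of all genes to -0.17, -0.14 and -0.17, so relative to all genes the 10 moved by at most 0.006.

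The median in HIF2α AKO ranged from 0.30 to 0.45 with single libraries left out. That of AKO against WT upon cold was 0.0089 without the muscle libraries and 0.0089 without the 3 libraries, and 0.0089 to 0.10 with single ones left out. That of the interaction ranged from 0.024 to 0.14. The study's thresholds, applied to the edgeR fit, called 1 gene in AKO against WT upon cold (8.98% of all genes) and 1 at TN (8.63%). They called 1 over both temperatures (7.99%) and 1 in the interaction (8.81%). The Tfb2m to Tfb1m ratio differed by 0.27 in AKO alone, the Tfam to Polrmt ratio by -0.30 (exact permutation p = 0.05) without the 3 libraries, and the Polg2 to Polg ratio by -0.26 to -0.13 with single libraries left out.

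Signs changed for values near 0 among the cold contrasts, those under upper quartile scaling with that shift of all genes. Tfb1m in WT was -0.0073 under upper quartile scaling. Polg was 0.058 in WT and 0.031 over both genotypes by limma-voom, -0.080 in HIF2α AKO under upper quartile scaling and 0.0030 over both without the 3 libraries. With single libraries left out Polg ranged from -0.10 to 0.0048 in WT, -0.021 to 0.032 in HIF2α AKO and -0.040 to 0.0076 over both. Mterf4 was 0.15 in HIF2α AKO without the 2 or the 3 libraries, -0.048 over both under upper quartile scaling and -0.0056 by limma-voom. With single libraries left out it ranged from -0.22 to 0.12 in HIF2α AKO and -0.027 to 0.14 over both. Between genotypes, 5 genes upon cold and 6 at TN changed sign under some alternative, and 0 of 220 values were called in each. The causes were not tested.

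Of 18 same-numbered pairs of libraries, 5 had a correlation above 0.1 (range -0.43 to 0.39). Differently numbered pairs were not compared and groups held 3 libraries, so these values cannot decide whether replicate numbers pair the libraries. With the replicate block, 2 genes were called in WT, 5 in HIF2α AKO (Ssbp1 lost, as under 16 of 22 alternatives) and 6 over both. Of all genes, 16.7%, 21.6% and 44% were then called in either direction. The counts of Polg2 (94 to 234) and Tfb1m (109 to 194) were the lowest and limit their precision.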
